A study of Homo sapiens with 16 samples.

Results

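The 9 genes described here carry the activin signal from the cell surface to the nucleus and turn it down again: the type I receptor ACVR1B, the type II receptors ACVR2A and ACVR2B, the signal carriers SMAD2 and SMAD3, their common partner SMAD4, and the feedback regulators SMAD7, SKIL and PMEPA1. They were taken as every probe set whose gene annotation contains 1 of these 9 symbols. That gave 11 of 18495 probe sets, and the brightest was used for each gene. They were followed in H9, a long-established line of human embryonic stem cells, on 16 Affymetrix exon arrays from 14 biological samples. Undifferentiated cells (day 0, 4 samples) were grown on mouse embryonic fibroblast feeders or on Matrigel in feeder-conditioned medium with bFGF at 8 ng/ml. The labels do not say which sample grew on which surface. Treated cells received activin A at 100 ng/ml in RPMI-1640 for 1 day (3 samples), 3 days (3 samples) or 5 days (4 samples), while fetal bovine serum was stepped from 0 to 0.2 and 2%. All cells were at passage 40 to 50, the day 0 cells received no added activin A, and there was no group in the new medium without activin. Activin, medium, serum and time therefore cannot be told apart.

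In this pathway, activin or the related ligand nodal binds a type II receptor, which phosphorylates a type I receptor, and that kinase phosphorylates SMAD2 and SMAD3. The phosphorylated SMADs join SMAD4, enter the nucleus and act on genes together with partners such as FOXH1 and EOMES. SMAD7, SKIL and PMEPA1 are well-known transcriptional targets of this route that also damp it. The pathway is known to sustain pluripotency in human embryonic stem cells and, when strongly activated, to direct them toward definitive endoderm, which forms the lining of the gut with its liver and pancreas. Most of its regulation is by phosphorylation and movement into the nucleus, which arrays of RNA do not measure.

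Promoter sequences of 4 of the genes are shown to place the elements that SMADs and their partners bind. Windows of 250 bases before the annotated start, credited to RefSeq on GRCh38.p14, were searched on both strands for 4 elements that do not overlap one another in the windows of these genes. These were the SMAD element CAGAC, the palindromic SMAD element GTCTAGAC, the forkhead element AATCCACA of FOXH1 and the AP-1 element TGACTCA. All 9 genes had an entry, with 20 windows among them. SMAD7 is shown first because a window of it holds CAGAC at 2 places, and SKIL because it holds the element on the opposite strand. A window of SMAD3 that is not shown holds CAGAC at 3 places. PMEPA1 is shown as a 30-base stretch because a SMAD and a forkhead element lie side by side. SMAD2 is shown because it rose in these cells while its windows hold none of the 4. Capitals mark the elements found (an element on the opposite strand is printed as its reverse complement), and every sequence is written 5′ to 3′ on the gene's own strand.
SMAD7, chr18:48950966-48951215, minus strand: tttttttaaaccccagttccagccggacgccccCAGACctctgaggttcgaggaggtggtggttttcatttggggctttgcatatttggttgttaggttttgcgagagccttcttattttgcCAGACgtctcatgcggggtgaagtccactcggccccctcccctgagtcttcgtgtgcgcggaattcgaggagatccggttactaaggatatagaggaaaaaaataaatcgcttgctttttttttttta
SKIL, chr3:170357465-170357714, plus strand: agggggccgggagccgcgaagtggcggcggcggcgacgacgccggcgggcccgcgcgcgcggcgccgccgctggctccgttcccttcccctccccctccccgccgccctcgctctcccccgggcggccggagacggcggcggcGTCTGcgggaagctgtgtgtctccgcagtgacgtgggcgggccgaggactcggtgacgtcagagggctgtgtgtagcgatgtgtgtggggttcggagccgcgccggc
PMEPA1, chr20:57710668-57710697, minus strand: ggcagCAGACaatgggTGTGGATTcgcccc
SMAD2, chr18:47930873-47931122, minus strand: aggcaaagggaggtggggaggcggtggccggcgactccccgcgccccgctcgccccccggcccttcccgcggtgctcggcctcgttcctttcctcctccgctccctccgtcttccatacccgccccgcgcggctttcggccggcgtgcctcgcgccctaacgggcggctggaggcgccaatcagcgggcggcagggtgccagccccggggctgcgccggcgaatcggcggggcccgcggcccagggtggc
In the SMAD7 window shown the 2 copies of CAGAC begin 217 and 128 bases before the start. In SKIL the element spans 107 to 103 bases before the start. In PMEPA1 the CAGAC begins 115 bases and the forkhead element 104 bases before the start of 1 of the gene's windows, with 6 bases between them. CAGAC is short and common, and it was present in 38.0% of the 35116 RefSeq promoter windows and in 8 of the 20 member windows (40.0%), which belong to ACVR1B, SMAD3, SMAD7, SKIL and PMEPA1. AATCCACA was present in 0.709% of all windows and in 1 member window, that of PMEPA1, and 0.308% of all windows held both elements. The AP-1 element TGACTCA was present in 4.2% of all windows and in 1 of SMAD3, and GTCTAGAC in 0.182% of all windows and in no member window. These matches are descriptions of sequence and were not tested for binding.

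Levels below are log2(intensity + 1) of gene-level array values, changes are differences of mean levels (a change of 1 is 2-fold) ± standard error (SE) from limma, and each p is adjusted with the Benjamini-Hochberg method over all 18495 probe sets, with 0.05 as the threshold. Levels of different genes come from different probes and are not compared. Each gene's probe set was above its array's median in 13 or 14 of the 14 samples. The technical array pairs of day 0 replicate 4 and day 5 replicate 4 correlated at 0.981 and 0.975. Day 3 replicate 2 and day 5 replicate 2 stood apart from their groups, with median correlations with the other samples of their day of at most 0.858, against 0.901 to 0.962 for the remaining 12 samples. Day 3 replicate 2 also went against its label: its mean level over 8 definitive endoderm markers was 7.36, below the 10.64 and 11.01 of day 3 replicates 1 and 3. Markers bore out the labels of days 0 and 5, with endoderm means of 6.79 to 7.88 at day 0 and 10.66 to 11.37 at day 5, and pluripotency means of 12.16 to 12.73 and 10.69 to 11.39. Results that rest on the samples that stood apart are given with and without them.

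Over 5 days of activin, 2 of the 9 genes were called higher, ACVR2A and SMAD2, and none was called lower. The ACVR2A call was lost in 8 of 14 fits that left out a single sample. The SMAD2 call rests on its brighter probe set. Both rose by slightly less than 2-fold at day 5. No member was called at day 1 or day 3, and the 3 feedback regulators were not called on any day. At day 1, 0.00541% of all probe sets were called (1 probe set) and 0 of 9 members, and 1116 probe sets and 0 members had an unadjusted p under 0.05. At day 3, 0.027% of all probe sets (5) and 0 members were called, against 1584 probe sets and 1 member at an unadjusted p under 0.05. At day 5, 5.46% of all probe sets were called, 2.56% as higher, and 2 of 9 members, both higher. Between day 1 and day 5, 3.33% were called, 2% as higher, and 1 member, SMAD2, which was higher. The F test over all days called 3.73% of probe sets and 1 member, again SMAD2. The comparisons of days 1, 3 and 5 with day 0 share the day 0 samples. The background shares depended on day 3 replicate 2, the sample that went against its label. Without it 46 probe sets (0.249%) were called at day 1, 590 (3.19%) at day 3, 1614 (8.73%) at day 5, 1130 (6.11%) between day 1 and day 5 and 1516 (8.2%) by the F test. The members called without it were again 0, 0, 2, 1 and 1, with ACVR2A and SMAD2 at day 5 and SMAD2 in the last pair of tests. Without day 5 replicate 2 the calls were 6, 14, 833, 527 and 582 probe sets, and the members called were 0, 0, 1, 1 and 0, each time SMAD2.

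**Figure D1:**
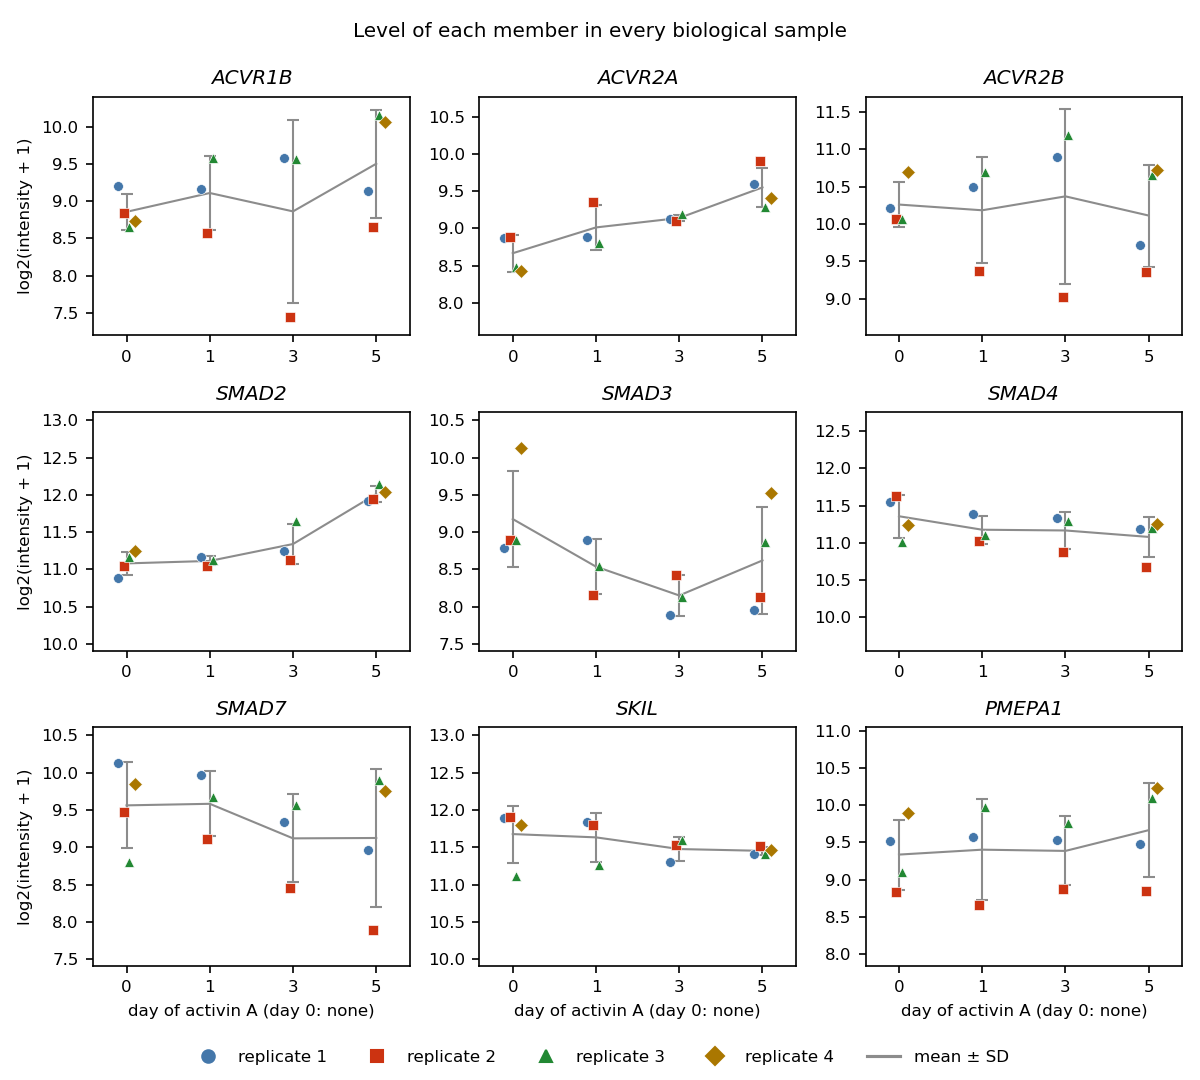
Level of each of the 9 genes, as log2(intensity + 1), in the 14 biological samples by day of activin A, with a symbol for each replicate number and grey lines for the mean ± SD of 3 or 4 samples; every panel spans the same range of log2 units. SMAD2 at day 5 lies at 11.92 to 12.14, above all day 0 samples (10.88 to 11.24), while replicate 2 (squares) is the lowest sample of days 1, 3 and 5 for ACVR1B, ACVR2B, SMAD4, SMAD7 and PMEPA1.

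Among the receptors, only the type II receptor ACVR2A changed past the test. ACVR2A binds activin at the cell surface and phosphorylates the type I receptor. Its level in replicates 1 to 4 of day 0 was 8.87, 8.89, 8.48 and 8.43. At day 1 it was 8.88, 9.36 and 8.80, and at day 3 it was 9.13, 9.10 and 9.19. At day 5 it was 9.60, 9.90, 9.29 and 9.41. Every day 3 and day 5 sample therefore lay above every day 0 sample, and the day 1 samples overlapped both. The spread between samples was small at day 3, where all 3 samples lay within 0.10, so day 3 replicate 2, which stood apart over the whole array, did not stand apart for this gene.

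ACVR2A was higher than at day 0 by 0.35 ± 0.23 at day 1 (limma, adjusted p = 1), by 0.47 ± 0.23 at day 3 (adjusted p = 0.64) and by 0.88 ± 0.22 at day 5 (adjusted p = 0.0317). The day 5 change is 1.84-fold, with a 95% interval of 1.33 to 2.55. It was higher at day 5 than at day 1 by 0.53 ± 0.23, which did not pass the test (adjusted p = 0.31). With weights on the arrays this change was 0.48 and was called (adjusted p = 0.0346), as were 20.7% of all probe sets. The F test did not pass (adjusted p = 0.145). The day 5 call lies close to the threshold. Without a single sample the change stayed between 0.77 and 0.97, but the call was lost without day 0 replicate 1, 2, 3 or 4 (adjusted p = 0.0602, 0.0554, 0.0912 and 0.0988), day 1 replicate 1 (0.0514) or day 5 replicate 1, 2 or 4 (0.0863, 0.0769 and 0.0504). It was also lost with the day 0 and day 5 samples fitted alone (0.0649), with all 16 arrays and the sample as a random block (0.068) and with technical replicate 1 alone (0.0532).

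ACVR2B, the close relative of ACVR2A and the other type II activin receptor, was not called on any day. Its level ran from 10.06 to 10.69 at day 0, from 9.37 to 10.69 at day 1, from 9.02 to 11.19 at day 3 and from 9.35 to 10.72 at day 5, so the groups overlapped throughout. Its change at day 5 was -0.15 ± 0.48 (adjusted p = 0.92). The lowest sample of days 1, 3 and 5 was replicate 2 each time, and without it the change was 0.33 at day 1, 0.79 at day 3 and 0.11 at day 5, none of them called. The direction of ACVR2B is thus unsettled in these samples. As a description chosen after the values were seen, ACVR2A minus ACVR2B was 1.03 higher at day 5 than at day 0. The samples of the 2 days overlapped, and an exact permutation test did not pass (p = 0.143, or 0.214 adjusted over the 3 such differences).

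ACVR1B, also known as ALK4, is the type I receptor kinase that phosphorylates SMAD2 and SMAD3. Its level was 8.65 to 9.20 at day 0, 8.58 to 9.58 at day 1, 7.45 to 9.58 at day 3 and 8.66 to 10.15 at day 5. Day 5 replicates 3 and 4 read 10.15 and 10.06, above every other sample of the series, whereas day 5 replicates 1 and 2 read 9.14 and 8.66, within the day 0 range. The day 5 change of 0.64 ± 0.48 was not called (adjusted p = 0.576), nor was 0.92 without day 5 replicate 2 (adjusted p = 0.422). With weights on the arrays, which count that sample less, the day 5 change was 1.08 and was called (adjusted p = 0.0108), as were 15.9% of all probe sets. At day 3 the change was 0.00 ± 0.51 with replicate 2, the lowest value of the series, and 0.71 without it (adjusted p = 0.517).

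SMAD2 rose at day 5 with the smallest adjusted p of the members. It is 1 of the 2 receptor-regulated SMADs that activin receptors phosphorylate. Its level in replicates 1 to 4 of day 0 was 10.88, 11.04, 11.16 and 11.24. At day 1 it was 11.17, 11.05 and 11.12, and at day 3 it was 11.24, 11.13 and 11.65. At day 5 it was 11.92, 11.94, 12.14 and 12.04. The day 5 samples lay close together and above every sample of the earlier days, while day 1 lay within the day 0 range and day 3 overlapped it.

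SMAD2 was higher at day 5 than at day 0 by 0.93 ± 0.19 (limma, adjusted p = 0.0108), a 1.9-fold rise with a 95% interval of 1.44 to 2.52. It was higher at day 5 than at day 1 by 0.89 ± 0.20 (adjusted p = 0.0289). At day 1 its change from day 0 was 0.04 ± 0.20, with a 95% interval of -0.40 to 0.47, and at day 3 it was 0.26 ± 0.20 (adjusted p = 0.817). The F test over all days passed (adjusted p = 0.0337). The day 5 call against day 0 held without any single sample, with changes of 0.86 to 0.98 and adjusted p of 0.00459 to 0.0459. The call against day 1 was lost without day 1 replicate 1, 2 or 3 (0.118, 0.0993 and 0.106) or day 5 replicate 1, 3 or 4 (0.0639, 0.0769 and 0.0678), and with the 2 days fitted alone (0.0859). The F test kept its call only without day 3 replicate 2 (0.013) or day 3 replicate 3 (0.0312) and lost it without each of the other 12 samples (0.0555 to 0.118).

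A second, dimmer probe set also carries the symbol SMAD2 alone, and it did not show the same rise past the test. It read 8.40, 8.29, 8.59 and 9.45 at day 0 and 8.42, 8.54, 9.65 and 9.91 at day 5. The days overlapped, because day 0 replicate 4 was high and day 5 replicates 1 and 2 lay within the day 0 range. Its day 5 change was 0.45 ± 0.42 (adjusted p = 0.667), and its changes at days 1 and 3 were -0.43 ± 0.45 and -0.34 ± 0.45 (adjusted p = 1 and 0.907). Between day 1 and day 5 the dimmer probe set changed by 0.87 ± 0.45, close in size to the 0.89 of the brighter one, but was not called (limma, adjusted p = 0.417). With the mean of both probe sets the SMAD2 change at day 5 was 0.69 and was not called (adjusted p = 0.216). Against day 1 the change of this mean was 0.88, also not called (limma, adjusted p = 0.16). The difference between the probe sets was 0.48 larger at day 5 than at day 0, with overlapping samples. An exact permutation test of it did not pass (p = 0.257, also after adjustment over the 3 such differences). The calls of SMAD2 therefore rest on its brighter probe set.

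SMAD3, the other receptor-regulated SMAD, binds the CAGAC element directly. Its level was 8.78, 8.89, 8.90 and 10.13 at day 0 and 8.90, 8.16 and 8.55 at day 1. At day 3 it was 7.89, 8.43 and 8.13, and at day 5 it was 7.96, 8.13, 8.87 and 9.52. Every day 3 sample lay below every day 0 sample, whereas the day 5 samples spread over 1.56 and overlapped day 0. Replicate 4 was the highest sample at both days that have one.

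The SMAD3 change from day 0 was -0.64 ± 0.41 at day 1, -1.02 ± 0.41 at day 3 and -0.56 ± 0.38 at day 5. None was called (adjusted p = 1, 0.481 and 0.539), and the day 3 change had an unadjusted p of 0.0286. Without day 3 replicate 2 the day 3 change was -1.16 (adjusted p = 0.266). With weights on the arrays it was -1.12 and was called (adjusted p = 0.0452), as were 12.7% of all probe sets. As a description chosen after the values were seen, and with the brighter SMAD2 probe set, SMAD2 minus SMAD3 was 1.90 ± 0.53 at day 0 (SD, n = 4) and 3.39 ± 0.65 at day 5 (SD, n = 4), a shift of 1.49. Day 0 samples ran from 1.12 to 2.26 and day 5 samples from 2.52 to 3.96, with no overlap. An exact permutation test gave p = 0.0286, the smallest possible with these samples. Adjusted over the 3 such differences it was 0.0857, which did not pass. The pair was chosen after the values were seen, so this p is no support for the shift.

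SMAD4, the partner that SMAD2 and SMAD3 share with the BMP pathway, had no called change. Its level ran from 11.01 to 11.63 at day 0, 11.03 to 11.39 at day 1, 10.88 to 11.33 at day 3 and 10.68 to 11.25 at day 5. The groups overlapped on every day. The day 5 change was -0.28 ± 0.22 (adjusted p = 0.612) and -0.14 without day 5 replicate 2, which was the lowest sample. A dimmer probe set that carries both SMAD4 and the neighbouring symbol ELAC1 was left out of the member values, and its day 5 change was 0.43 ± 0.52 (adjusted p = 0.753).

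**Figure D2:**
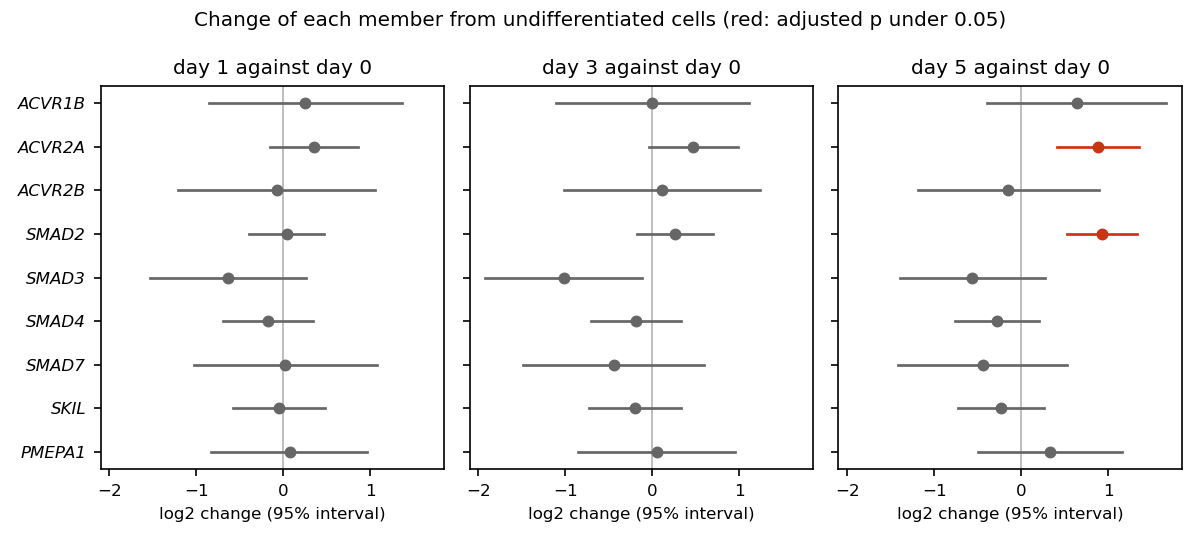
Change of each of the 9 genes from day 0 on the log2 scale at days 1, 3 and 5, as points with 95% intervals from limma; changes with an adjusted p under 0.05 are red. ACVR2A and SMAD2 at day 5 are called, SMAD3 at day 3 has an interval of -1.92 to -0.12 but an adjusted p of 0.481, and the intervals of SMAD7, SKIL and PMEPA1 include 0 on every day.

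None of the 3 feedback regulators changed past the test on any day. SMAD7 is an inhibitory SMAD that binds the type I receptor and recruits ubiquitin ligases to it. Its level was 10.13, 9.47, 8.80 and 9.85 at day 0 and 9.97, 9.11 and 9.67 at day 1. At day 3 it was 9.34, 8.45 and 9.57, and at day 5 it was 8.96, 7.89, 9.90 and 9.75. Samples of each day overlapped those of day 0, and the lowest value of all was day 5 replicate 2. The SMAD7 change at day 1 was 0.02 ± 0.49 (limma, adjusted p = 1), and its 95% interval in fold terms was 0.49 to 2.1. At day 5 it was -0.44 ± 0.45 (adjusted p = 0.702) and -0.03 without day 5 replicate 2. At day 3 it was -0.44 ± 0.49 (adjusted p = 0.88) and -0.11 without day 3 replicate 2.

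SKIL, also known as SnoN, is a co-repressor that binds SMAD complexes on DNA and is degraded when the pathway is activated. Its level was 11.89, 11.91, 11.11 and 11.80 at day 0, and 11.84, 11.80 and 11.26 at day 1. At day 3 it was 11.30, 11.53 and 11.60, and at day 5 it was 11.41, 11.52, 11.41 and 11.47. The day 5 samples lay within 0.11 of one another, between the low day 0 replicate 3 and the other day 0 samples. The SKIL change was -0.05 ± 0.25 at day 1, with a 95% interval of -0.58 to 0.48, and -0.23 ± 0.23 at day 5, with an interval of -0.72 to 0.26 (adjusted p = 1 and 0.693). SKIL thus had the narrowest interval of the 3 feedback regulators, and a rise of 2-fold (a change of 1) lies outside it on both days.

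PMEPA1, also known as TMEPAI, is a membrane protein that keeps SMAD2 and SMAD3 from the receptor. Its level was 9.52, 8.83, 9.10 and 9.90 at day 0 and 9.57, 8.66 and 9.98 at day 1. At day 3 it was 9.53, 8.87 and 9.76, and at day 5 it was 9.48, 8.85, 10.10 and 10.23. Replicate 2 was the lowest sample on all 4 days, between 8.66 and 8.87, and the groups overlapped throughout. The PMEPA1 change was 0.07 ± 0.42 at day 1 and 0.33 ± 0.39 at day 5 (adjusted p = 1 and 0.744). Without day 1 replicate 2 the day 1 change was 0.44, and without day 5 replicate 2 the day 5 change was 0.60 (adjusted p = 1 and 0.546). At day 3 it was 0.05 ± 0.42 (adjusted p = 0.989), or 0.31 without day 3 replicate 2.

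Across the 9 genes the median change at day 5 was -0.15, against -0.02 over all probe sets, and 4 were positive and 5 negative. The median size of the change, whatever its sign, was 0.08 at day 1, 0.20 at day 3 and 0.44 at day 5 for the members, against 0.26, 0.32 and 0.37 over all probe sets. At day 1, 0 members had samples that all lay to one side of day 0, as did 11.5% of all probe sets. At day 3 there were 2, ACVR2A and SMAD3, against 9.82% of all probe sets, and at day 5 there were 2, ACVR2A and SMAD2, against 14.6%. Between day 1 and day 5 there was 1, SMAD2, against 16.1%.

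The members varied within days as well as between them. Replicate 2 was the lowest sample at days 1, 3 and 5 for 5 of the 9 genes, ACVR1B, ACVR2B, SMAD4, SMAD7 and PMEPA1, as it was for 4347 of 18495 probe sets (23.5%). At day 3, replicate 2 differed from the mean of its day by -1.41 for ACVR1B and -1.35 for ACVR2B, and at day 5 it differed by -1.24 for SMAD7 and -0.85 for ACVR1B. ACVR2A and SMAD2, the genes that rose, deviated by at most 0.35 and 0.31 from the mean of their day in any sample. SMAD4, which was not called, deviated little more, with its largest deviation at day 5 replicate 2 (-0.40). A small spread within days enters the test itself, so it is no separate support for the calls of ACVR2A and SMAD2. The array weights were 0.108 for day 3 replicate 2 and 0.149 for day 5 replicate 2, against 0.454 for day 1 replicate 2 and 4.57 for the most weighted sample, day 1 replicate 1. With these weights 3 members were called at day 5, ACVR1B (1.08, adjusted p = 0.0108) with ACVR2A and SMAD2. Of all probe sets, 15.9% were called at day 5 with the weights, against 5.46% without them.

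**Figure D3:**
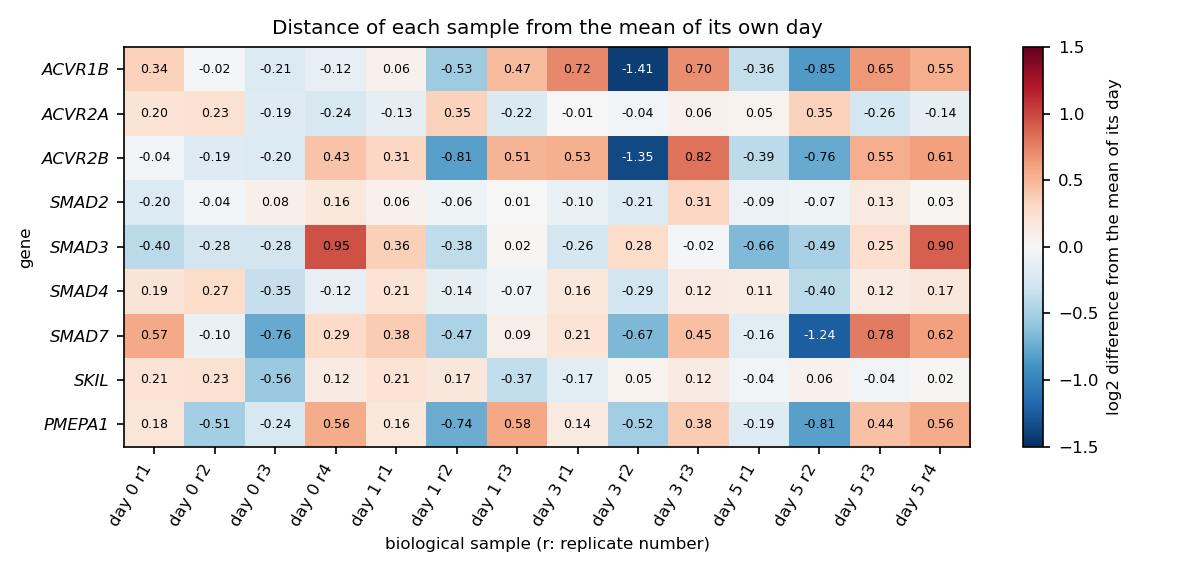
Difference of each of the 14 samples from the mean of its own day, in log2 units, for the 9 genes, with blue for lower and red for higher samples. Day 3 replicate 2 is lowest for ACVR1B (-1.41) and ACVR2B (-1.35), day 5 replicate 2 for SMAD7 (-1.24), and the rows of ACVR2A, SMAD2 and SMAD4 stay pale.

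Each member had a close companion in pattern elsewhere on the array, taken as the gene with the highest Pearson r over the 14 samples among probe sets with a single symbol. These r values describe likeness over samples that share arrays and days, so differences between days and the replicate 2 samples both enter them, and they are given without a p. SMAD2 was most like ADAMTS18 (r = 0.97) and ACVR2A most like RPH3AL (r = 0.96), and both values were the same over the 12 samples without replicate 2 of days 3 and 5. ACVR1B was most like TMEM109 (r = 0.96), ACVR2B like CLASP1 (r = 0.98), SMAD3 like MTMR9 (r = 0.94) and PMEPA1 like TEAD1 (r = 0.94). The companions of SMAD4 and SMAD7 leaned most on those samples: AP1G1 with SMAD4 went from 0.89 to 0.81, and BCOR with SMAD7 from 0.95 to 0.85. SKIL was most like TAPT1 (r = 0.87 over 14 samples and 0.88 over 12).

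The other genes of the pathway were described through 5 lists with 81 genes, and 63 of these were measured on a probe set of their own. None was called at day 1 or day 3 with all samples. Without day 3 replicate 2, 4 were higher at day 1 (GDF3, MIXL1, EOMES and GSC) and 10 at day 3 (those 4 with SMAD6, DAB2, TGFB1, CER1, FOXA2 and SOX17), and 0 were lower on either day. At day 5, 11 of 63 were higher and 0 lower, with a median change of 0.12 against -0.02 over all probe sets, beside the 2.56% of all probe sets called higher. Among the 11 are NODAL, CER1, MIXL1, EOMES, GSC, FOXA2 and SOX17, which are also on the streak or endoderm marker lists used below. The lists were chosen with earlier results of these data known, so this share is description only. Without day 3 replicate 2, 13 were higher and 1 lower at day 5. Between day 1 and day 5, 1 was higher and 1 lower, or 5 and 2 without that sample. Of 14 measured repressors, ubiquitin ligases and phosphatases, 0 were called at day 5 and 3 had a positive change, with a median of -0.19, and 0 were called at day 3 or day 5 without day 3 replicate 2.

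Of 10 other receptors and co-receptors, 1 rose at day 5, AMHR2, the type II receptor of anti-Müllerian hormone, by 1.59 ± 0.34 (limma, adjusted p = 0.015). AMHR2 was dim, with mean levels of 5.88 at day 0 and 7.46 at day 5, both below the array medians (245.1 to 246.3 in intensity). Without day 3 replicate 2, 2 were called higher (BMPR2 added), and without day 5 replicate 2, 1. With both samples left out 4 were called higher (TGFBR1, BMPR2 and BAMBI added). The AMHR2 call was lost without day 0 replicate 1 or 2 (0.0545 and 0.0543). Against day 1, AMHR2 was higher by 1.71 ± 0.36 (adjusted p = 0.0224), a call lost without day 1 replicate 1, 2 or 3 or day 5 replicate 1 (0.0511 to 0.093) and with the 2 days fitted alone (0.0717). ENG, a co-receptor for TGF-beta and BMP ligands, differed between day 5 and day 1 by -0.91 ± 0.23 (adjusted p = 0.046), and this call was kept only without day 3 replicate 2 or 3 and lost without each of the other 12 samples (up to 0.21). The ENG call was also lost with the replicate number as a block (0.0765).

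Of 11 other SMADs and SMAD partners, 1 rose at day 5, SMAD6, the inhibitory SMAD that acts mainly on the BMP branch. Its mean level was 6.60 at day 0 and 9.24 at day 5, a rise of 2.63 ± 0.62 (limma, adjusted p = 0.0257). The change of SMAD6 stayed between 2.52 and 2.79 without any single sample, but its call was lost without day 0 replicate 1, 2, 3 or 4 (0.081, 0.0663, 0.0616 and 0.063) or day 5 replicate 2, 3 or 4 (0.0518, 0.0682 and 0.0597). Without day 3 replicate 2 the SMAD6 call was kept (adjusted p = 3.58e-05), and 2 genes of the list were called higher (DAB2 added). SMAD7, the other inhibitory SMAD, had a day 5 change of -0.44 ± 0.45 that was not called, and the difference between the 2 was not tested.

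Of 17 ligands and extracellular antagonists, 4 rose at day 5, and the median change of the list was 0.32. FST, the secreted activin-binding protein follistatin, rose by 2.83 ± 0.40 (limma, adjusted p = 0.00131), and CER1, which binds nodal, by 2.98 ± 0.62 (adjusted p = 0.0131). GDF3, a nodal-related ligand, rose by 2.08 ± 0.36 (adjusted p = 0.00441). At day 1 the changes of FST, CER1 and GDF3 from day 0 were 1.32, 1.75 and 2.15, none called with all samples. Only that of GDF3 was called without day 3 replicate 2. The CER1 call was lost without day 0 replicate 1 or 2 (0.0513 and 0.05), and those of FST and GDF3 were kept without each sample in turn. Of 11 shared targets, 5 rose at day 5. The 3 with the largest changes were the homeobox genes GSC (6.12 ± 1.01, adjusted p = 0.00353) and MIXL1 (5.17 ± 0.88, adjusted p = 0.00416) and the T-box gene EOMES (5.33 ± 1.03, adjusted p = 0.00887), and their calls were kept without each sample in turn. The changes of GSC, MIXL1 and EOMES were already 5.26, 5.34 and 5.59 at day 1. These day 1 changes were not called with all samples but were called without day 3 replicate 2.

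**Figure D4:**
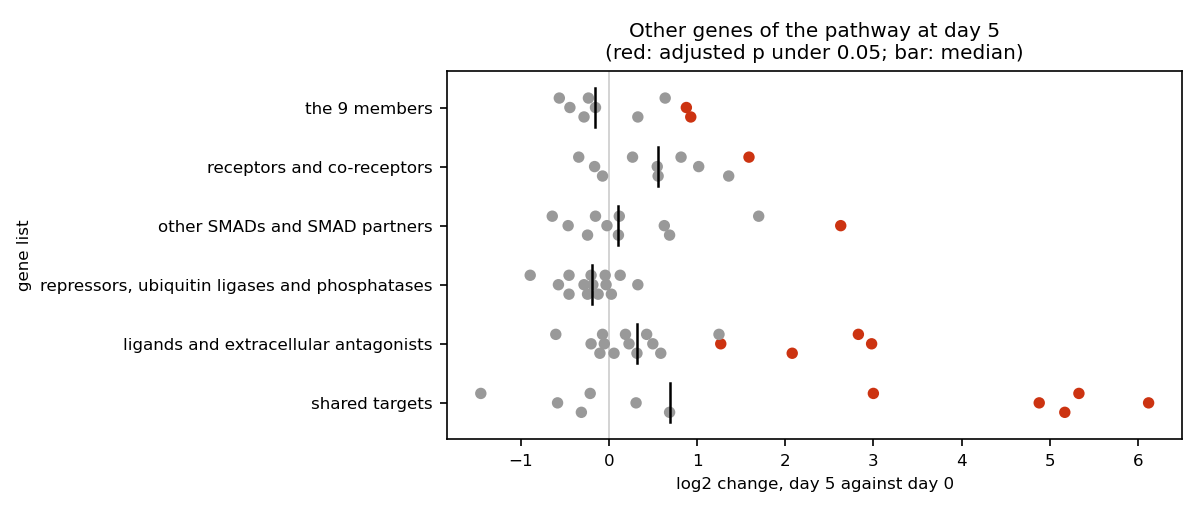
Change from day 0 to day 5 on the log2 scale of the 9 members and of the 63 other measured genes of the pathway in 5 lists, with a point for each gene, red for an adjusted p under 0.05 and a bar at the median. The called members lie at 0.88 and 0.93, the called ligands, antagonists and shared targets reach 6.12, and no repressor, ligase or phosphatase is called.

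Markers of cell types moved with day 5 beside the rise of ACVR2A and SMAD2. All 8 measured definitive endoderm markers were higher (7 without day 5 replicate 2) and 3 of 7 pluripotency markers lower (4 without day 3 replicate 2). POU5F1, NANOG and SOX2 had no probe set of their own and are not among these 7. Of 8 primitive streak markers, 5 were higher and 1 lower at day 5. Their mean level was 6.83 to 7.69 in day 0 samples and 9.02 to 9.70 in day 5 samples. The streak markers MIXL1, EOMES, GSC and NODAL and the endoderm markers SOX17, FOXA2 and CER1 were also counted above as pathway genes. Of markers of other cell types, 1 of 5 for mesoderm was higher (HAND1) and 1 lower (KDR), and 2 of 8 for neural ectoderm were higher (PAX6 and DLK1). Without day 5 replicate 2, 0 mesoderm markers were lower and 1 neural ectoderm marker was higher. Without day 3 replicate 2, 3 neural ectoderm markers were higher. For trophoblast 1 of 7 was higher (GATA3), and of 8 for fibroblasts 1 was higher (LUM) and 1 lower (THY1). The mean level of THY1 was 11.92 at day 0 and 9.77 at day 5. Any feeder cells were mouse cells read on human arrays, and their part in the fibroblast signal was not tested. The summed intensity over the list ran over day 0 samples from 1930 to 2120 for mesoderm and from 3990 to 7680 for neural ectoderm, and over day 5 samples from 978 to 1440 and from 6340 to 10600. For trophoblast it ran from 280 to 472 at day 0 and from 432 to 953 at day 5, and for fibroblasts from 6220 to 9740 and from 2560 to 6800. Some markers of these 4 lists were dim. At day 5 the mean level was 3.33 for ELF5, 3.96 for CGA and 4.27 for LHX2, where array medians were 245.1 to 246.3 in intensity. Such low levels do not show that a marker was expressed. In these bulk samples a change in the share of cells of a type and a change in RNA per cell cannot be told apart, and the part of other cell types in the rise of ACVR2A and SMAD2 was not tested.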

How the data were processed

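The authors deposited 1 linear intensity per gene-level probe set for each of 16 Human Exon 1.0 ST arrays. Per the submitters' processing notes the genome build is hg18, and no summarisation or normalization tool is given in the sources used here. RNA was depleted of ribosomal RNA, amplified and biotinylated, per the labels' protocols. The 14 biological samples were grouped by the labels' day of activin, and nothing says whether replicates were separate differentiations, so p-values measure only the spread between these samples. Precision is limited by the number of arrays.

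Array medians ran from 245.1 to 246.3, and 636 values were below 0, the lowest -0.273. After addition of 1 the values were log2-transformed and technical arrays averaged, which concerns replicate 4 of days 0 and 5 with 2 arrays each. All 4 days were fitted together in limma 3.58.1 (R 4.3.3; functions lmFit and eBayes), with 10 residual and 3 prior degrees of freedom, and the code was tested on simulated data. Intervals are at 95% from the moderated SE. A gene with several probe sets was represented by the one with the highest mean. Of the probe sets, 14577 carried 1 symbol, 2849 several and 1069 none, and only the first kind was named. Beside the 9 members, the text names for each member the gene or genes with the highest r and, from each pathway list, up to 3 genes past the test with the largest change. The members, lists and tests were chosen with earlier results of these data known. The 3 differences between probe sets were chosen after their values were seen, so their exact permutation tests between days 0 and 5 are description only.

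Promoter sequences came from RefSeq on GRCh38.p14. The search used the 250 bases before each start. Protein motifs were not analysed here. The alternatives were other ways of treating technical arrays, replicate blocks, fits of only the groups compared, other scalings, filters, pseudocounts and weights, the mean of all probe sets of a gene, and leaving out each sample in turn.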

Additional observations from a re-analysis of the deposited data

Results flagged for a closer look

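In 3 of 18 sets of 4 samples (each member at day 0 and at day 5), 1 sample lay far from the other 3. The measure was the gap to the nearest sample over the range of the group, and the sample counted as far where this passed Dixon's 95% critical value, which for normally distributed values chance passes in about 1 of 20 groups. SMAD3 in day 0 replicate 4 read 10.13 where the next was 8.90, a gap of 0.909 of the range. SMAD4 in day 5 replicate 2 read 10.68 where the next was 11.19, a gap of 0.895 of the range. SKIL in day 0 replicate 3 read 11.11 where the next was 11.80, a gap of 0.858 of the range.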

How the results depend on the processing

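Of 1014 recomputed values (39 results under 26 alternatives), 923 kept their direction and side of the threshold, 53 lost and 3 gained a call, and 35 turned direction. The count of members called at day 5 against day 0 was 2 and became 1 with all 16 arrays and a random block, with technical replicate 1 alone, with only the groups compared and with the mean of all probe sets, 3 with array weights (ACVR1B added), and 1 to 2 without single samples. The count at day 5 against day 1 was 1, became 0 with only the groups compared and with the mean of all probe sets, 3 with array weights (ACVR1B and ACVR2A added), and 0 to 1 without single samples. The F test's count was 1, became 0 with the random block, technical replicate 1 alone and the mean of all probe sets, 3 with array weights, and 0 to 1 without single samples. Array weights called 1 member at day 3 (SMAD3), beside 12.7% of all probe sets. With these weights 15.9% of all probe sets were called at day 5 against day 0, 20.7% at day 5 against day 1 and 27.6% by the F test. The cause of these differences was not tested. The replicate number as a block left the counts at 0, 0, 2, 1 and 1, with ACVR2A at day 5 at 0.88 (limma, adjusted p = 0.0192) and SMAD2 at 0.93 (0.0111), and ended the call of ENG between days 1 and 5 (-0.90, 0.0765). Same-numbered samples deviated together in only 10 of 19 pairs (r over 0.1, range -0.28 to 0.65), and 8 of 14 samples matched best with their own number, so the numbers were not taken as a pairing. Among days 1, 3 and 5 the pairs ran from 0.51 to 0.65 for replicate 2, from 0.37 to 0.56 for replicate 3 and from -0.15 to 0.19 for replicate 1, and replicate 4 of days 0 and 5 gave 0.51.

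Directions turned only in changes that were never called. They were 0.10 (replicate block) and 0.21 (array weights) for ACVR2B at day 1, 0.31 (array weights) and 0.11 (both low samples left out) for ACVR2B at day 5, -0.00 for ACVR1B at day 3 (technical replicate 2 alone) and 0.06 for SMAD7 at day 5 (array weights). With the mean of all probe sets they were -0.20 and -0.04 for SMAD2 at days 1 and 3 and 0.07 for SMAD4 at day 5. Without single samples, changes that turned ran at day 1 from -0.33 to 0.33 for ACVR2B, -0.03 to 0.09 for SMAD2, -0.23 to 0.25 for SMAD7, -0.23 to 0.14 for SKIL and -0.22 to 0.44 for PMEPA1. At day 3 they ran from -0.36 to 0.71 for ACVR1B, -0.30 to 0.79 for ACVR2B and -0.14 to 0.31 for PMEPA1, and at day 5 from -0.35 to 0.11 for ACVR2B.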
